A study of Homo sapiens with 2 samples.

Results

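Chem-seq maps where a small molecule sits on the genome by pulling down the chromatin fragments it is attached to. The regions described here are those captured with biotin-linked lurbinectedin on chromosomes 2, 4, 5, 8, 13 and 18. The choice was by chromosome alone, taking autosomes with few protein-coding genes per Mb. The regions number 251 of the 1038 listed for the whole genome, or 24.2% (95% exact binomial interval 21.6% to 26.9%). Both libraries came from A549, an established human lung adenocarcinoma line. The capture group is 1 library from cells given the drug for 4 h at 300 nM and cross-linked for 10 min in 1% formaldehyde, from which streptavidin beads collected the drug-bound fragments. The input group is 1 library whose labels carry the same treatment and bead text, so the labels do not say at which step it was set aside. Neither library is a bead pull-down from untreated cells, so binding by the drug and other capture by the beads cannot be told apart. A list of regions holds no marker of cell identity, so the cell line label could not be checked.

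Lurbinectedin is a synthetic alkaloid that enters the minor groove of DNA and bonds to guanine. It is used against small cell lung cancer and is known to stall elongating RNA polymerase II and to lead to DNA breaks. Gene-poor chromosomes are, as background, richer in A and T, replicate later and lie more often near the nuclear edge than gene-dense ones, and chromosome 18 is a standard example of such a peripheral chromosome. No hg19 sequence or annotation was used here, so the regions are given by position and are not assigned to genes, exons, introns or promoters.

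The label "gene-poor" was checked against a table of protein-coding genes on GRCh38.p14. Among 22 autosomes the 7 lowest gene densities included all 6 chromosomes, and the exception was chromosome 21. Gene density ran from 2.96 genes per Mb on chromosome 13 and 3.37 on chromosome 18 through 4.05 on chromosome 4, 4.93 on chromosome 8 and 4.99 on chromosome 5 to 5.18 on chromosome 2. For comparison, chromosomes 11, 16, 17, 19 and 22, which hold 250 listed regions and are called gene-dense below, carried from 8.88 to 24.8 genes per Mb.

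With each position counted once, 12639402 of 38139640 capture tags and 47414514 of 49348069 input tags remained. Duplicates were 66.9% and 3.92% of these libraries. With 1 library in each group no difference has a replicate check, regions of 1 library are not replicates of one another, and no p-value is given. Intervals are 95% and cover counting error only.

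As a set, these chromosomes carried fewer captured regions per Mb than the rest, though several other chromosomes were as sparse. Over the distance from the first to the last region of each chromosome they came to 0.277 per Mb (exact Poisson interval 0.244 to 0.314), or 1 region in 3.61 Mb. The other 17 chromosomes, leaving out Y, carried 0.412 per Mb (0.384 to 0.442), and the gene-dense chromosomes 0.661 per Mb (0.582 to 0.749). These intervals did not overlap. Single chromosomes of the rest lay as low or lower, with 0.0691 per Mb on chromosome X, 0.0846 on chromosome 21, 0.217 on chromosome 3, 0.237 on gene-dense chromosome 22, 0.261 on chromosome 20 and 0.269 on chromosome 1. Chromosome 2, at 0.365, lay above gene-dense chromosome 11 at 0.341. Counted per gene the order was the other way round, with 5.90 regions per 100 protein-coding genes on the gene-poor chromosomes (5.20 to 6.68), 4.99 on the others (4.65 to 5.35) and 4.78 on the gene-dense ones (4.21 to 5.41). The per-gene intervals overlapped.

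The 6 chromosomes differed among themselves by more than they differed as a set from the rest. Chromosome 2 held 87 regions at 0.365 per Mb (0.293 to 0.451), and chromosome 5 held 64 at 0.361 per Mb (0.278 to 0.461). Chromosome 4, slightly longer in span than chromosome 5, held 48 at 0.259 per Mb (0.191 to 0.343). Chromosome 8 held 36 at 0.249 per Mb (0.175 to 0.345). Chromosomes 18 and 13 stood far below, with 9 regions at 0.117 per Mb (0.0536 to 0.222) and 7 regions at 0.0846 per Mb (0.0340 to 0.174). The intervals of chromosomes 2 and 5 nearly coincided, as did those of 4 and 8 and those of 13 and 18, and within each pair the values did not differ beyond counting error. The upper limits of chromosomes 13 and 18 lay below the lower limits of chromosomes 2 and 5. Region density rose in nearly the same order as gene density among these 6 chromosomes, with only chromosomes 4 and 8 exchanged, which is a description of 6 points that share 1 library. Chromosome 21 broke that order, since its gene density of 5.13 per Mb lay between those of chromosomes 5 and 2 and its region density of 0.0846 per Mb (0.0174 to 0.247) was that of chromosome 13.

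**Figure D1:**
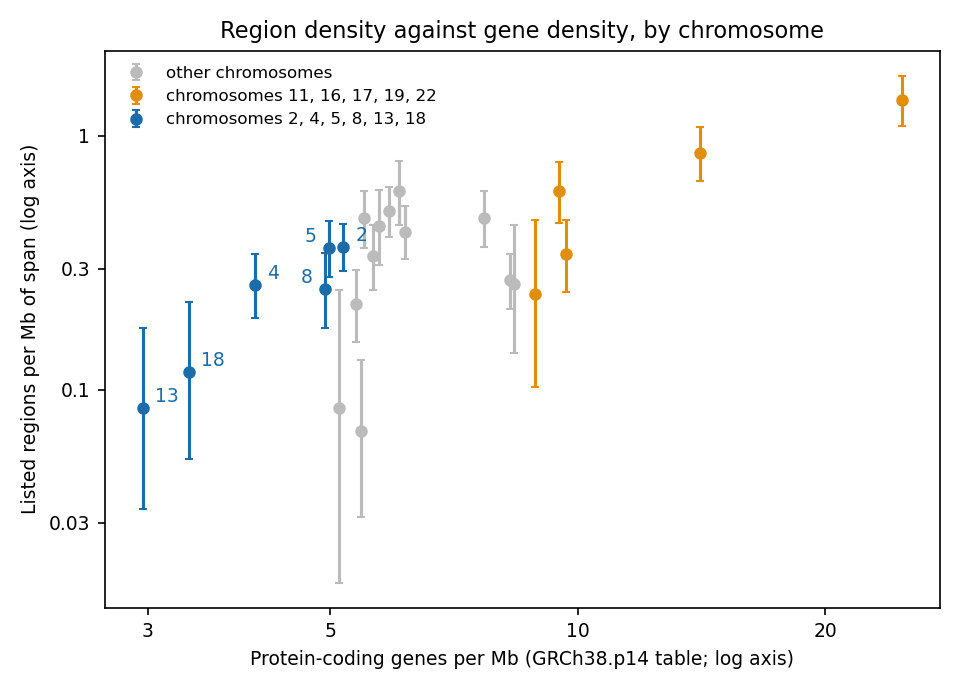
Listed regions per Mb of the span from first to last region (vertical, log axis) against protein-coding genes per Mb (horizontal, log axis), 1 point per chromosome without Y; bars are exact Poisson 95% intervals. The chromosomes with the lowest gene density, 13 and 18, also lay low in region density at 0.0846 and 0.117 per Mb, while chromosomes 2 and 5 stood at 0.365 and 0.361. Chromosome 21, with a gene density close to those of 2 and 5, lay at 0.0846.

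Along the chromosomes the regions were unevenly placed, and the pattern differed from one chromosome to the next. On chromosome 2, 81 of 87 regions lay in the first 160 Mb (93.1%, exact binomial interval 85.6% to 97.4%) and 6 in the 80 Mb from 160 to 240. The last 2 regions of chromosome 2 were 40.2 Mb apart, with summits at 198287890 and 238534675. On chromosome 4, 42 of 48 lay before 90 Mb (87.5%, 74.8% to 95.3%) and 6 in the next 100 Mb. No region of chromosome 4 was listed between the summits at 122994239 and 186372813, a stretch of 63.4 Mb or 34.2% of the chromosome's span. Chromosome 5 had no such imbalance, with 32 regions on either side of the midpoint of its span and a longest stretch of 12.9 Mb, from 37284214 to 50187688. Just beyond that stretch, the 10 Mb from 50 to 60 held 9 regions, the fullest window of chromosome 5.

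Chromosome 8 carried its regions at both ends. Its first 60 Mb held 17 of 36 regions and the 20 Mb from 130 to 150 held 14 (38.9%, exact binomial interval 23.1% to 56.5%). The 70 Mb between held 5, and none was listed for 28.3 Mb between the summits at 82754763 and 111040298. Chromosome 13 had 1 region each in the windows at 20, 40, 70, 100 and 110 Mb and 2 in that at 90 Mb, with 37.2 Mb free of listed regions between 40277934 and 77490859. Chromosome 18 spread its 9 regions from 279018 to 77113805, with a longest stretch of 17.4 Mb. In all, 21 of 95 windows of 10 Mb on the gene-poor chromosomes held no region (22.1%, 14.2% to 31.8%), against 29 of 204 on the others (14.2%, 9.73% to 19.8%) and 1 of 41 on the gene-dense ones (2.44%, 0.0617% to 12.9%). The fullest window on the gene-poor chromosomes, from 120 to 130 Mb on chromosome 2, held 12.

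The caller numbered its peaks in order, and 43 of 294 numbers within these 6 chromosomes (14.6%) belong to no row used here. The other chromosomes without Y had 95 absent numbers beside 785 listed regions. By chromosome, 15 were absent on 2, 10 on 4, 9 on 5, 8 on 8, 1 on 18 and 0 on 13. The reason is unknown, and the densities above count listed regions alone. None of the 43 fell in the longest stretches of chromosomes 4, 8, 13 and 18, while 1 fell in that of chromosome 2 and 5 in that of chromosome 5. Across those 4 stretches the numbers run on without a break. Their boundaries, and those of the windows above, were chosen after the positions had been seen.

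**Figure D2:**
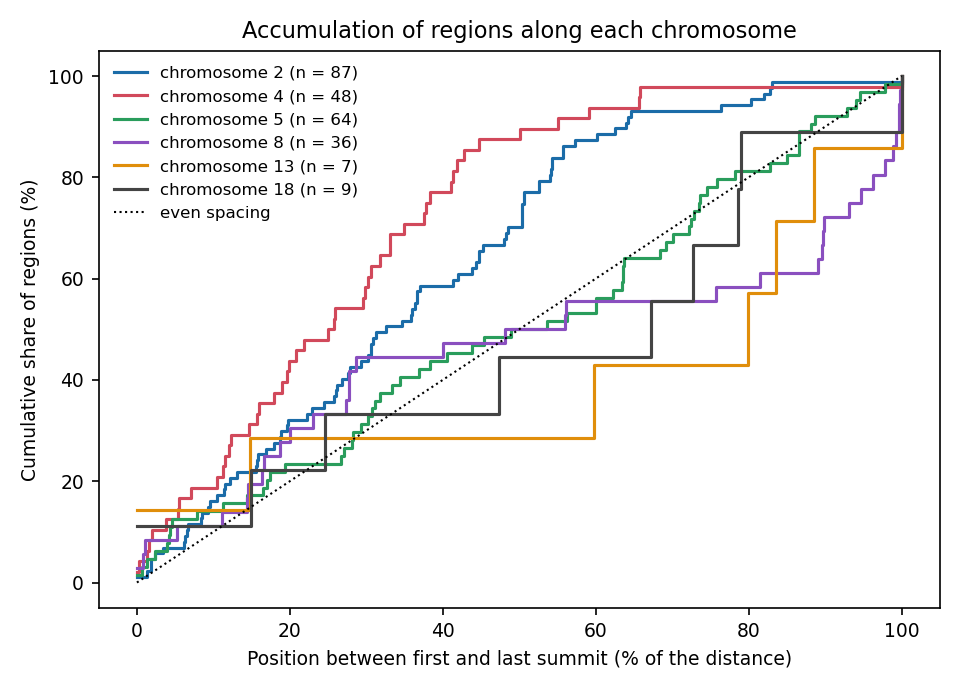
Cumulative share of a chromosome's regions (vertical, %) against position between its first and last summit (horizontal, % of that distance), 1 line per chromosome; the dotted line is even spacing. Chromosomes 2 and 4 gain most of their regions early and then run flat, chromosome 5 follows the dotted line, and chromosome 8 gains 14 of its 36 regions near the end.

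The local input background was set beside this layout. Each region's local background is what the caller took as the expected capture density there, either the genome mean or, where larger, the density of input tags close by after scaling. It was recovered from the deposited values and is given in multiples of the genome mean. To within 0.001 it equalled the genome mean, which is the floor of the caller's rule, for 91 of the 251 regions (36.3%, exact binomial interval 30.3% to 42.5%), where 27.5% of all listed regions and 50 of the 250 on the gene-dense chromosomes (15.2% to 25.5%) did so. On chromosome 2 the share was 19.7% of 61 regions before the midpoint of the span (10.6% to 31.8%) and 57.7% of 26 after it (36.9% to 76.6%). All 6 regions beyond 160 Mb on chromosome 2 were at the genome mean. For chromosome 4 the share was 21.4% of 42 regions before the midpoint (10.3% to 36.8%) and 4 of 6 after it. On chromosome 5 it was 40.6% of 32 before (23.7% to 59.4%) and 25% of 32 after (11.5% to 43.4%), and on chromosome 8 it was 9 of 18 and 7 of 18. Full windows could also be high in this share, with 6 of 9 regions from 50 to 60 Mb on chromosome 5 and 6 of 12 from 120 to 130 Mb on chromosome 2, whereas 5 of 14 were at the genome mean from 130 to 150 Mb on chromosome 8. Chromosomes 13 and 18, the sparsest, had 6 of 7 and 8 of 9 regions at the genome mean. Over whole chromosomes the share was 31.0% on chromosome 2, 27.1% on chromosome 4, 32.8% on chromosome 5 and 44.4% on chromosome 8. Parts of other chromosomes were as high, with 13 of 25 before the midpoint of gene-dense chromosome 11 and 16 of 24 after that of chromosome 1. Other parts were low, with 4 of 15 after the midpoint of chromosome 11 and 0 of 39 after that of chromosome 17. The part of the input density in the number of regions called was not tested, and an input density below the genome mean would not show in these values.

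For the 160 regions above the genome mean, the background could be traced to input tags. In 151 of them (94.4%) it equalled a whole number of input tags per 10 kb (tolerance 0.1 tag), and in 69 of those (45.7%, exact binomial interval 37.6% to 54.0%) that number was a multiple of 10, as a count over the caller's 1 kb window must be. Such multiples arise by coincidence in 10% of 10 kb counts. The split on the other chromosomes was nearly the same, 260 of 568 (45.8%). A genome-mean stretch of 1 kb held 17.6 input tags, and the median region of the gene-poor chromosomes had the equivalent of 18.3. In multiples of the genome mean that median was 1.04 (order-statistic interval 1.03 to 1.08), against 1.10 over all listed regions (1.08 to 1.12) and 1.14 on the gene-dense chromosomes (1.12 to 1.20).

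Enrichment at the summit of the listed regions was modest and similar from chromosome to chromosome. Only regions that passed the caller's p-value limit are listed, so this similarity is not independent of that limit. The authors' peak caller gave each region's fold, the number of overlapping capture fragments at the summit divided by the local background. Over the 251 regions the lowest fold was 4.40, the median 8.16 (order-statistic interval 7.77 to 8.53), and the highest 12.05. All listed regions had a median of 7.78 (7.77 to 8.03), and those on the gene-dense chromosomes 7.65 (7.38 to 7.77). Median fold was 8.74 on chromosomes 13 and 18, 8.53 on chromosome 4, 8.08 on chromosomes 2 and 8, and 7.89 on chromosome 5, and the order-statistic intervals of these 6 medians overlapped.

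The median summit held 9 overlapping fragments on the gene-poor chromosomes, 9 on all the others and 10 on the gene-dense ones. Summits of 8 to 10 fragments made up 187 of the 251 (74.5%, exact binomial interval 68.6% to 79.8%), against 67.4% of all listed regions and 156 of 250 on the gene-dense chromosomes (62.4%, 56.1% to 68.4%). Where the background sat at the genome mean, the median fold was 8.74 both for the 91 gene-poor regions and for 194 regions elsewhere. Above the genome mean it was 7.89 for the 160 gene-poor regions (7.64 to 8.21) and 7.58 for 593 elsewhere (7.50 to 7.71). Fold has the background as its divisor, so the medians over all regions and the backgrounds are not separate readings.

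Because a summit is a whole number of fragments, fold at the genome mean could take few values. Of the 91 regions there, 14 had 7 fragments and a fold of 6.80, 20 had 8 and 7.77, 27 had 9 and 8.74, 21 had 10 and 9.71, 7 had 11 and 10.68, and 2 had 12 and 11.65. A difference of 1 step on this ladder is a difference of 1 fragment. A fold of 10 or more was reached by 14 of the 251 regions (5.58%, exact binomial interval 3.08% to 9.18%), against 6.94% of all listed regions, which lies within that interval.

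**Figure D3:**
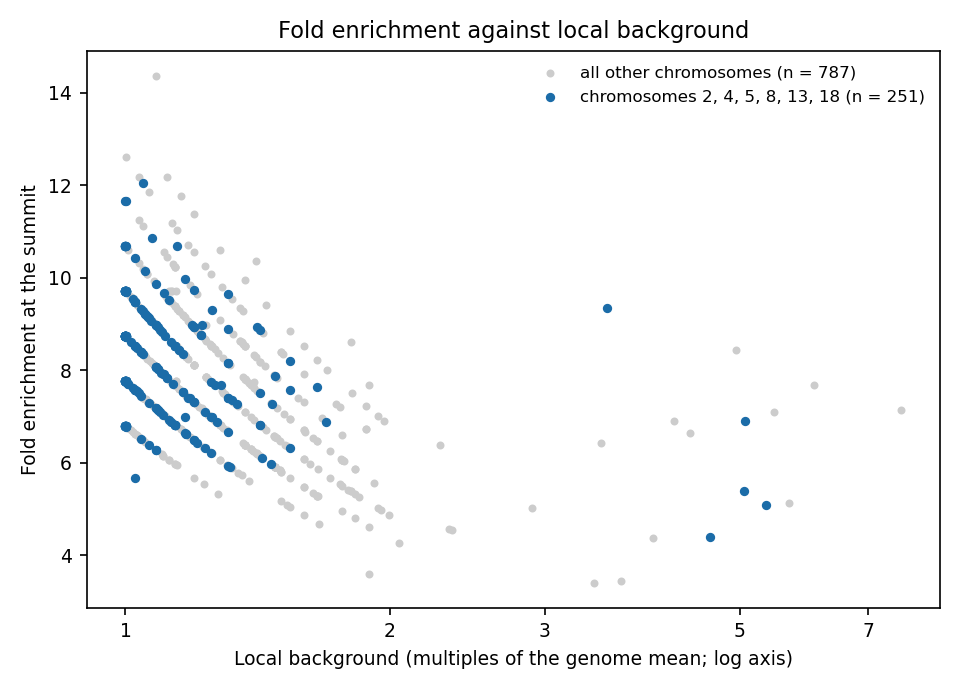
Fold enrichment at the summit (vertical) against local background in multiples of the genome mean (horizontal, log axis), 1 point per region; blue points are the 251 regions of the gene-poor chromosomes and grey points the other 787. The slanting rows are summits with the same whole number of fragments, and 5 blue points stand apart to the right at backgrounds of 3.53 to 5.35.

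The highest fold lay on chromosome 2 at chr2:120770576-120771352, 777 bp wide, where 15 tags were counted and 13 fragments overlapped at a fold of 12.05 (exact Poisson interval of the pileup 6.42 to 20.6). It ranked 5 by fold in the whole list, at a background of 1.05. Next came a region on chromosome 8 (chr8:111039945-111040492), the first one after that chromosome's long empty stretch, with 14 tags and a fold of 11.65 (6.02 to 20.4). A region on chromosome 4 (chr4:59983322-59983750) reached the same fold with 12 tags in 429 bp, close to the narrowest of the set. At chr2:88655839-88656528 the fold was 10.86 (5.61 to 18.97). These summits all stood on 12 or 13 fragments, and their intervals overlap, so their order is not resolved.

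Behind these 4, 8 regions tied at a fold of 10.68. On chromosome 5 they were chr5:51078796-51079444, chr5:59351502-59352143 and chr5:68360248-68360924, which share the highest fold of that chromosome. On chromosome 4 they were chr4:1562181-1562735, chr4:30002769-30003370 and chr4:41540419-41541075. On chromosome 2 they were chr2:195800060-195800726, within the sparse end of the chromosome, and chr2:15153436-15154064. The 12 regions held 12 to 15 tags each, 9 of them lay at the genome mean, and 6 had a false discovery rate that the caller lists as 0. None was on chromosome 13 or 18, but these hold only 7 and 9 of the 251 regions, too few for their absence to be read. The highest fold of chromosome 13 was 9.71, shared by 3 regions that include chr13:97125720-97126403 (16 tags, 4.66 to 17.9). On chromosome 18 it was 8.93 at chr18:60989147-60989686 (13 tags, 4.46 to 15.98).

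Ranking by the caller's score gave other regions. The score sums up all tags of a region as a p-value on a scale of 10 times the negative log10, with 50 as its threshold. It had a median of 54.74 (order-statistic interval 53.98 to 55.67) on the gene-poor chromosomes and 55.2 over all listed regions. The highest, 123.59, belonged to chr2:87623517-87624468, with 51 tags and a fold of 9.35 (6.48 to 13.1). It was the only member to reach a score of 100 (0.398%, against 0.674% of all listed regions) and it stood on a background of 3.53. A region on chromosome 4, chr4:8159583-8160452, followed at 84.91 with 26 tags and a background of 1.65. On chromosome 5, chr5:131563245-131564071 scored 83.23 with 21 tags and chr5:176560783-176561706 scored 80.66 with 23.

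The other 6 of the 10 highest scores lay between 74.02 and 78.84. They were chr2:47507943-47509023 with 26 tags over 1081 bp, chr2:45268630-45269191 with 17 tags in 562 bp, chr8:42995862-42996534 with 17, chr8:22422504-22423347 with 19, chr4:20353114-20353774 with 16 and chr4:14218433-14219093 with 17. No region was among both the 10 highest scores and the 12 highest folds. Lists this short out of 251 regions would share few or none even if the 2 rankings were unrelated. The lack of overlap is therefore no result about these regions. The listed false discovery rate went with the score and was 0 for every member from a score of 60.48 up. That took in all 10 of highest score by construction. In all it was listed as 0 for 55 of the 251 regions (21.9%, exact binomial interval 16.95% to 27.5%), against 24.9% of all listed regions. The gene-poor chromosomes supplied 14 of the 100 highest scores of the whole list, beside their 24.2% of all regions. By fold they supplied 23 of the 100 highest, a list whose end falls among regions tied at 9.71. At a fold of 9.71 or more they held 38 of 143 listed regions. The low count by score was therefore not seen by fold, and no interval is given for these counts.

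Most regions rested on the smallest numbers of tags the caller accepts. The median region held 13 tags, with a range from 12 to 66, against a median of 14 over all listed regions and 15 on the gene-dense chromosomes. Exactly 12 tags were counted in 56 of the 251 (22.3%, exact binomial interval 17.3% to 28.0%, against 17.1% of all listed regions) and 12 to 15 in 208 (82.9%, 77.6% to 87.3%, against 68.9%). At the other end, 12 regions (4.78%, 2.49% to 8.20%) held 20 tags or more, against 10.3% of all listed regions and 48 of 250 gene-dense ones (19.2%). The median width was 644 bp (interval 620 to 652), an interval that takes in the 651.5 bp of all listed regions, and 5 regions were over 1000 bp (1.99%, against 5.11% of all listed regions). The narrowest, chr5:10966677-10967104, measured 428 bp, and the widest, chr2:133015830-133017322, 1493 bp. Among regions at the genome mean the median was 13 tags on the gene-poor chromosomes, on all the others and on the gene-dense ones. Above the genome mean the medians were 14, 15 and 16 tags in that order. At a higher background more tags are needed to pass the caller's limit, so tag numbers and backgrounds are not separate readings.

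**Figure D4:**
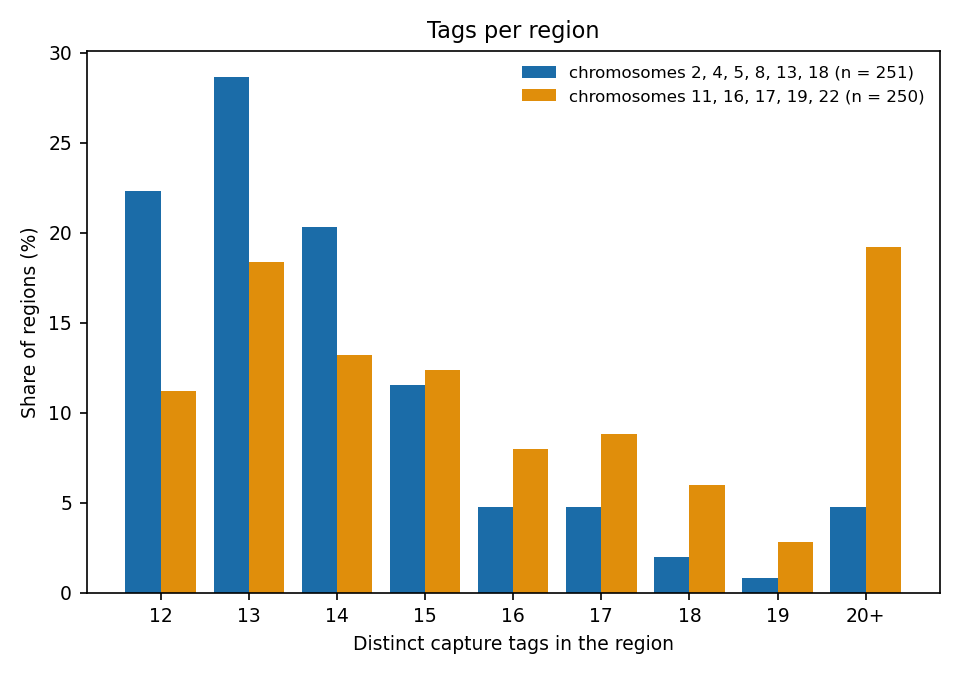
Share of regions (vertical, %) by the number of distinct capture tags they hold (horizontal; the last bar pair groups 20 or more), for the 251 regions of the gene-poor chromosomes and the 250 of the gene-dense ones. Regions of 12 to 14 tags make up more of the gene-poor set, and regions of 20 or more tags are 4.78% there and 19.2% in the gene-dense set.

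How close these regions came to the threshold can be read by recomputing each score with tags removed at an unchanged background. With 1 tag fewer, 162 of the 251 regions (64.5%, exact binomial interval 58.3% to 70.5%) would score under 50, against 57.9% of all listed regions and 51.6% of the gene-dense ones (45.2% to 57.9%). With 2 tags fewer the count was 222 (88.4%, against 82.8% of all listed regions), and with 3 fewer it was 238 (94.8%, against 91.7%). The region of highest fold, chr2:120770576-120771352, was among those lost with 1 tag fewer, at a score of 49.4. By chromosome the share lost with 1 tag fewer ran from 52.8% on chromosome 8 (35.5% to 69.6%) to 68.8% on chromosome 5 (55.9% to 79.8%) among the 4 chromosomes with over 30 regions, and the intervals overlap.

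Together the 251 regions covered 164 kb and held 3698 distinct capture tags, 22.2% of the tags in all listed regions and 0.0293% of the library (exact binomial interval 0.0283% to 0.0302%). That was 3.94 times the 938 tags implied by their local background, beside 3.72 times for the whole list and 3.63 times for the gene-dense chromosomes. Regions were listed only where tags exceeded this background, and the ratio needed to pass the caller's limit falls as the background rises. These ratios are therefore no separate measure of capture strength. The ratio was 4.26 on chromosome 4, 4.15 on chromosome 5, 3.90 on chromosome 8 and 3.70 on chromosome 2, with 4.38 over the 9 regions of chromosome 18 and 3.50 over the 7 of chromosome 13.

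In 5 regions the input itself was high, with a background of more than 3 times the genome mean (1.99% of the 251, exact binomial interval 0.650% to 4.59%, against 1.54% of all listed regions). They held 254 tags, 6.87% of those in the set. A pair on chromosome 2 lay 18.2 kb apart, chr2:133015830-133017322 with 66 tags, a fold of 5.08 and a background of 5.35, and chr2:133034260-133035296 with 50 tags, a fold of 5.38 and a background of 5.05. The input density there was equivalent to 94.0 and 88.7 tags per kb. On chromosome 8, chr8:82754122-82755135 held 52 tags at a fold of 6.90 and a background of 5.07, or 89.0 input tags per kb. It is the last region before the empty stretch of that chromosome.

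On chromosome 13 the high-background region was the first of the chromosome, chr13:28033540-28034240, with 35 tags, a background of 4.63 and the lowest fold of the set, 4.40 (2.73 to 6.73). The remaining one is the region of highest score at chr2:87623517-87624468, with 62.0 input tags per kb. Summits of these 5 regions carried 21 to 36 fragments, and no summit among the other 246 exceeded 13. Nor did any of the 246 exceed 26 tags or a background of 1.69. The 5 were picked by their background, and at a high background only regions of many tags pass the caller's limit. The 3 measures are therefore not separate readings. The source of the dense input was not tested.

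Spacing was measured from summit to summit. From each summit to the nearest other one the median distance was 720 kb (order-statistic interval 611 to 1002 kb), against 602 kb over all listed regions (531 to 673 kb) and 270 kb on the gene-dense chromosomes (220 to 368 kb). A neighbour within 100 kb was found for 30 of the 251 regions (11.95%, exact binomial interval 8.21% to 16.6%), close to the 13.4% of all listed regions, and for 13 of 164 without chromosome 2 (7.93%). On the gene-dense chromosomes 54 of 250 did (21.6%, 16.7% to 27.2%). The 30 formed 12 pairs and 2 triples, of which chromosome 2 held 8 groups, chromosome 5 held 3, chromosome 8 held 2, chromosome 4 held 1, and chromosomes 13 and 18 none. Within 1000 kb a neighbour was present for 140 regions (55.8%, 49.4% to 62.0%), against 64.1% of all listed regions.

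Only 3 pairs had summits within 10 kb (6 regions, 2.39%, against 2.60% of all listed regions). The closest were chr5:109525576-109526176 and chr5:109527048-109527681, whose summits were 1.61 kb apart with 871 bp between the regions, and whose folds were 7.77 and 7.75. Also on chromosome 5, chr5:115660395-115661011 and chr5:115668799-115669492 lay 8.19 kb apart and shared a fold of 8.74. On chromosome 2, chr2:15153436-15154064 and chr2:15163009-15163618 lay 9.47 kb apart with folds of 10.68 and 7.77.

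The wider groups within 100 kb included the region of highest fold. A triple on chromosome 2 ran from 120154040 to 120189763 with folds of 7.10 to 9.71, and further along the same window the region of highest fold had a neighbour 40.3 kb away, chr2:120811103-120811740, with a fold of 9.71. These 5 regions are part of the 12 in the fullest window of chromosome 2. The triple on chromosome 5 ran from 156489230 to 156517596 with folds of 7.50 to 7.87, and 2 of its 3 regions had raised backgrounds of 1.42 and 1.48. On chromosome 8 the pairs started at 22422504 and 41627462, and on chromosome 4 the single pair started at 62314602. Members of a group lie on the same stretch of a chromosome and are not taken as independent of each other. The pairs with summits within 10 kb may also share part of the 10 kb window of input. In the wider groups neighbouring summits lay farther apart than that.

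**Figure D5:**
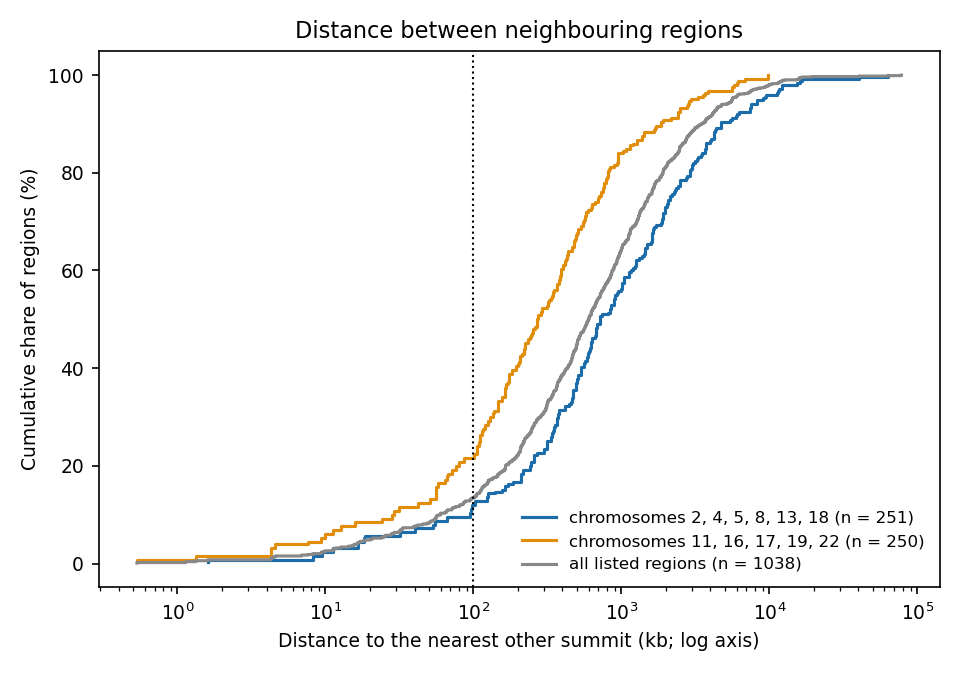
Cumulative share of regions (vertical, %) against the distance to the nearest other summit on the same chromosome (horizontal, kb, log axis), for the gene-poor chromosomes, the gene-dense chromosomes and all listed regions; the dotted line marks 100 kb. At that distance the curves stand at 11.95%, 21.6% and 13.4%.

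Within the regions, summits lay on both sides of the middle as well as in it. It fell between 40% and 60% of the width in 87 of the 251 (34.7%, exact binomial interval 28.8% to 40.9%, against 35.4% of all listed regions). It lay before 40% in 76 (30.3%, against 33.4%) and beyond 60% in 88 (35.1%, 29.2% to 41.3%, against 31.2%). The median summit stood at 53.5% of the width (order-statistic interval 50.0% to 55.9%), against 49.9% over all listed regions (47.1% to 50.7%).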

How the data were processed

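Chem-seq of A549 cells gave 1 capture and 1 input library. Per the submitters' processing notes, CASAVA 1.8.2, Bowtie (without a version) and MACS 1.4.2 were used with the build hg19. Per the file headers, MACS kept 1 tag per position, used a fragment length of 220 bp, computed local backgrounds from windows of 1000 and 10000 bp and applied a p-value limit of 1e-05. Tags are deposited as counts, the fold enrichment as a ratio, the false discovery rate as a percent and positions in bases. The deposited score column had lost its name and was taken to be 10 times the p-value's negative log10, from its place and lowest value, 50.01. Fold, score and false discovery rate are the authors' values for each region.

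Expected tags were solved from score and tags by the Poisson tail (scipy 1.17.1), and division by the width (at least 440 bp) gave the background. Recovered summit pileups were whole within 0.05 for 98.7% of 1038 regions and for all but 4 of the 251, and the arithmetic was tested on simulated data. Shares have exact binomial intervals, densities exact Poisson intervals and medians order-statistic intervals. Named regions were the 10 of highest fold (12 with ties) and of highest score, the highest fold on each chromosome, backgrounds above 3, summits within 10 kb and extremes of width, tags and fold; others were named after their values were seen. Members, lists and measures were chosen with earlier results of these data known. Planned sequence and gene annotation analyses needed hg19, which was not used here. No coordinate was converted; GRCh38.p14 served for gene numbers alone.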

Additional observations from a re-analysis of the deposited data

How the results depend on the processing

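Of 147 alternative values, 122 stayed within the 95% counting interval of the value reported and 25 moved out of it; none has a test. Most moves follow from the alternative itself, which left fewer regions or changed the limit. With regions of at least the median score, the gene-poor chromosomes had 0.131 regions per Mb, a median fold of 8.74, 10 fragments at the median summit, 10.1% at a fold of 10 or more, 46.2% with a false discovery rate of 0, a median neighbour distance of 2271 kb and 6.72% with a neighbour within 100 kb. With regions of at least the median fold they held 26.9% of the list, 0.155 regions per Mb, a median score of 56.4, 10 fragments at the median summit, a median neighbour distance of 1613 kb and 7.14% with a neighbour within 100 kb.

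Without chromosome 2 the share of the list was 17.2%, the share with a neighbour within 100 kb fell to 7.93% (13 of 164), because 17 of the 30 regions with one lie on that chromosome, and 0 regions reached a score of 100. Without chromosomes 4, 5 or 8 the share of the list was 20.5%, 19.2% or 21.5%. Without regions of high background 0 regions reached a score of 100. Other limits gave 23.1% at a fold of 9 or more and 1.20% at 11 or more, 51.8% within 0.05 of the genome mean, and 2.39% and 55.8% with a neighbour within 10 and 1000 kb. At a fold of 9 or more the gene-poor share exceeded the 19.7% of the other chromosomes, whereas at 10 or more it lay below theirs (5.58% and 7.37%), so no order by high fold can be read.

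Density was lower, neighbour distance longer and the share at the genome mean higher than on the other chromosomes under every alternative run for these 3 results. This concerns direction alone. Without chromosome 5 the neighbour distance was 637 kb, and its interval (530 to 856 kb) took in the 552 kb of the other chromosomes. With regions of at least the median fold it was 1613 kb, and its interval (1199 to 2395 kb) took in their 1212 kb. Density and neighbour distance are read from the same summits and are not separate results. No alternative left out a chromosome of the comparison. The alternatives on the first part of chromosomes 2 and 4, chosen after the data were examined, gave 63.8% to 71.4% and 87.5% to 93.5% of regions before the midpoint. The planned sequence window was not run, since no hg19 genome was used here. No paired analysis was possible because each group has 1 library.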
